A study of Zea mays with 24 samples.

Results

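The transcripts described here are those that the study listed as specific to 1 mm anthers of maize, without the cell cycle transcripts that it listed on their own. The list holds 218 probes, 5 of them were left out as cell cycle transcripts, and the remaining 213 are 213 of the 7900 probes with a value. The members were selected on hybridization signal and not on a ratio between lines: a listed transcript was called present in 1 mm anthers of all 3 lines studied, and by the study's definition of tissue specificity it was not called present in the other tissues sampled. The ratios come from the same arrays as those signals, so that the ratios in 1 mm anthers and those in the other tissues are not independent of the choice of the list. Signal intensities and presence calls are not analysed here. The values at the threshold of the list are therefore not given, and the labelled tissues cannot be checked from the ratios. Ratios and p-values given for 1.5 mm anthers, leaf and pollen are, by that definition, those of signals the study had not called present there, apart from the 3 members that were also on its leaf or pollen list.

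The tested lines were A619, a derivative of that inbred, and ND101/W23, the F1 hybrid of ND101 as seed parent with W23 as pollen parent. Both were compared with W23, an inbred that carries the bz2 mutation and so accumulates no anthocyanin. Each line gave 3 biological samples each of 1 mm and 1.5 mm anthers, of juvenile leaf and of mature pollen from field-grown plants, 12 samples a line and 36 in all; anthers came from upper florets, those of 1 sample usually from 1 tassel, and the pollen of 1 plant was pooled into 1 sample. RNA of A619 or of ND101/W23 was amplified, labelled and hybridized together with W23 RNA of the same tissue on arrays of 60-mer probes, 3 arrays for each of 8 comparisons and 24 in all. The 3 W23 samples of a tissue served both lines, so that same-numbered arrays of A619 and ND101/W23 have their W23 sample in common, and p-values measure the spread of these few arrays, whose number limits the precision.

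All values are log2 ratios of the line over W23, as normalized by the authors: 0 stands for equal signal, and 1 or -1 for a difference by a factor of 2. The labels and the study's drawing of the design give opposite dyes to the lines, and the direction was set by array ratios of ND101/W23 to W23 in the study's panel of primers, with which the values used here correlated at a Pearson r of 0.986 over 74 values, with the same sign in 36 of 36 values of at least 0.5 in size. The panel holds no A619 ratios, so the sign of the A619 ratios was not checked directly and is likely rather than settled. It rests on the W23 samples that both lines share: the deviations of same-numbered arrays of the 2 lines from their means correlated at 0.198 to 0.645 (12 pairs), where W23 on opposite sides of the ratios would give values below 0. A probe was called against W23 when its adjusted p from limma was under 0.05 and its 3 ratios had the same sign. Differences between lines or between stages were called on an adjusted p under 0.05 alone. Fewer cells of a type and less RNA per cell cannot be told apart in RNA of whole organs.

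A maize anther is built of rings of somatic cells, from the epidermis inwards the endothecium, the middle layer and the tapetum, around the pre-germinal cells that will enter meiosis. Cell division builds up the young anther and gives way to specialization of the rings as the anther lengthens. Dividing plant tissue draws on DNA replication factors, on the splicing and ribosomal RNA machinery, on chaperones and nuclear import, and on the proteasome that removes regulators at each round of division.

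Of the 213 probes, 111 carried a named product and 102 did not, 27 of these listed as unknown. The largest named group held 23 proteins of RNA processing and RNA binding, among them spliceosome subunits, an exosome subunit and polynucleotide phosphorylases. It was followed by 17 proteins of chromatin and transcription, 14 of metabolism and the cell wall, 12 of translation, folding and nuclear import, 12 of protein turnover, 11 kinases and signalling proteins, 10 proteins of DNA replication and cell division, 7 of the cytoskeleton, vesicles and transport, and 5 mitochondrial proteins. Replication and division products had stayed in the list where the study's cell cycle list did not hold them. The list overlapped little with the study's lists for other tissues: adenylosuccinate synthetase (TC261667), an enzyme of AMP synthesis, and SNAP-28 (TC251858), a membrane fusion protein, were also on the leaf list, and a DNA methyltransferase (TC263214) was also on the pollen list. The probes matched their EST without a mismatch in 194 cases, with 1 mismatch in 16 and with 2 in 3, 198 probes hit 1 EST or contig only, and 12 lay on its reverse strand.

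In 1 mm anthers, where the list was made, the transcripts differed little between A619 and W23. Presence in all 3 lines at this stage was a condition of the list. The counts and medians of both lines in 1 mm anthers therefore describe the listed probes and are no independent test of them. The median of the 213 mean ratios was 0.0 in A619, with array medians of -0.06, -0.08 and 0.11, against 0.02 for all probes. Of the 213, 1 was called lower and 2 were called higher in A619, shares of 0.469% and 0.939%, against 2.04% and 2.1% of all probes tested. The 3 called transcripts are described one by one, since each was called the same way again in 1.5 mm anthers of A619. Over the whole array 262 of the 327 probes called at 1 mm, or 80.1%, were called again at 1.5 mm, 1 of them the other way. With the replicate number as a block 7 members were called, with replicate 1 or replicate 2 left out 1 was and with replicate 3 left out none was; 16 had an unadjusted p under 0.05 in limma.

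An inosine-uridine nucleoside N-ribohydrolase (TC262905), an enzyme that splits nucleosides into base and ribose, had ratios of 1.54, 2.35 and 1.79 in 1 mm anthers of A619, against 1.19, 2.04 and 2.64 in ND101/W23. In 1.5 mm anthers A619 had 3.09, 2.52 and 2.29, against 1.58, 2.65 and 2.11 in ND101/W23. In leaf A619 had 1.87, 2.39 and 1.38, against 1.9, 2.3 and 1.86 in ND101/W23. All 18 of these ratios lay above 1, the ratios of the lines overlapped in each tissue, and in pollen all 6 lay between -0.28 and 0.53. Same-numbered arrays of the lines share a W23 sample, so the ratios of the 2 lines are not independent of each other. It was the 1 member called in 6 of the 8 comparisons, with mean ratios of 1.89 ± 0.41 (SD, n = 3; adjusted p = 0.0113) in A619 and 1.96 ± 0.73 (SD, n = 3; adjusted p = 0.0104) in ND101/W23 at 1 mm.

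A product similar to a gag-pol polyprotein (TC272617), the protein of retroelements, was called lower in both anther stages and leaf of A619 and in 1 mm anthers of ND101/W23. Its ratios were -1.6, -2.3 and -1.77 in 1 mm anthers of A619, against -1.5, -0.52 and -1.28 in ND101/W23. They were -1.82, -2.31 and -2.12 in 1.5 mm anthers of A619, against -0.29, -0.98 and -1.56 in ND101/W23. All A619 anther ratios lay below those of ND101/W23 at the same stage, without overlap, and the A619 means of -1.89 ± 0.37 at 1 mm and -2.08 ± 0.25 at 1.5 mm (SD, n = 3 each) had adjusted p-values of 0.00537 and 0.00249. Retroelement sequences occur in many copies, so this probe may read several of them.

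The third transcript, TC252349, has no known product, and its probe lies on the reverse strand of its contig. It had ratios of 1.56, 1.95 and 2.16 in 1 mm anthers of A619, against 0.03, 1.04 and -1.33 in ND101/W23. In 1.5 mm anthers A619 had 3.41, 3.99 and 3.39, against -0.7, -0.25 and 0.4 in ND101/W23. The A619 ratios stood above all ND101/W23 ratios at both stages, and in leaf the 3 A619 ratios were between 0.03 and 0.26. The difference between the lines in 1.5 mm anthers was 3.78 (SE 0.32, adjusted p = 0.00349). By the study's definition TC252349 was not called present in 1.5 mm anthers, and the signals behind these ratios were not analysed.

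ND101/W23 also stayed close to W23 in 1 mm anthers, with a median of -0.107, against 0.03 for all probes. The array medians were -0.22, -0.23 and 0.1, so that the array with replicate number 3 was the highest, as in A619, with which it shares a W23 sample. In ND101/W23, 7 members were called lower and 5 higher, against 4.58% and 2.47% of all probes; none was called lower and 7 higher without replicate 1, 1 lower and none higher without replicate 2, and none at all without replicate 3. Scaling the arrays to equal spread also left none lower, and 3 higher. Among those lower were the 70 kDa peptidylprolyl isomerase CN844824, a protein-folding enzyme, at -0.6, -1.57 and -0.72, and a GroEL-like chaperonin (TC250116) at -0.59, -0.45 and -0.91. Among those higher, a cold shock domain protein (TC249592), of a family that binds RNA, had 0.14, 0.24 and 0.1 in A619, against 0.99, 1.18 and 0.82 in ND101/W23, with no overlap of the lines at this stage. The histone deacetylase HDA1 (TC250308), which removes acetyl groups from histones, had -0.47, -0.48 and -0.6, with an adjusted p of 0.0425 and of 0.051 with the replicate block; TC249775, with no named product, had a mean of -0.52 and an adjusted p of 0.0425, and of 0.0516 with the block.

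The transcript with the highest mean ratio in 1 mm anthers was an endo-1,4-beta-glucanase (TC262031), a cell wall enzyme. Its ratios in A619 were 2.03, 3.1 and 2.39 at 1 mm and 3.18, 3.9 and 3.29 at 1.5 mm. In ND101/W23 they were 1.22, 3.61 and 6.06 at 1 mm and 3.24, 3.02 and 2.43 at 1.5 mm. Every anther ratio of both lines was above 1, the spread being widest in ND101/W23 at 1 mm, while the leaf and pollen ratios of both lines lay between -0.24 and 0.27. Here too the lines share their W23 samples, so their ratios are not independent of each other. By the study's definition the transcript was not called present in 1.5 mm anthers, leaf or pollen, and its signals were not analysed. It was called in 1.5 mm anthers of both lines, with means of 3.46 ± 0.39 in A619 and 2.9 ± 0.42 in ND101/W23 (SD, n = 3 each; adjusted p = 0.000318 and 0.00141), and in 1 mm anthers of ND101/W23 (mean 3.63 ± 2.42, SD, n = 3; adjusted p = 0.0318).

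**Figure D1:**
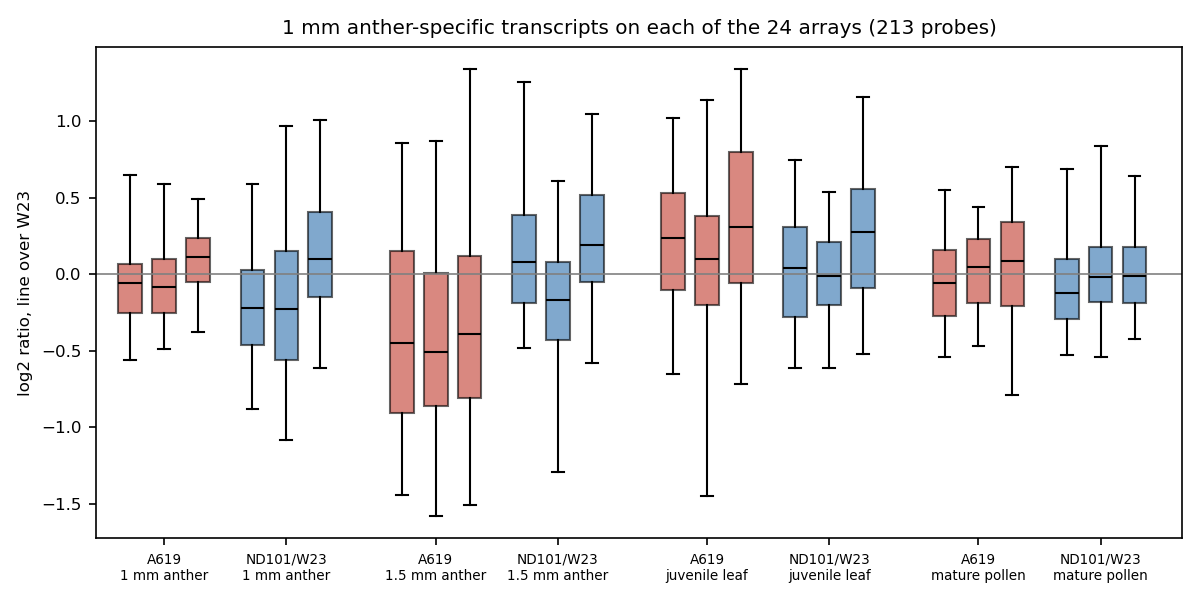
Log2 ratios (line over W23) of the 213 members on each of the 24 arrays, A619 in red and ND101/W23 in blue, with the 3 arrays of a comparison side by side in the order of their replicate numbers. Boxes span the quartiles with a line at the median, and whiskers run to the 5th and 95th percentiles; the 3 A619 arrays of 1.5 mm anthers have medians of -0.45, -0.51 and -0.39, and all other medians lie between -0.23 and 0.31.

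In 1.5 mm anthers most members had ratios below 0 in A619. The signals at this stage entered the choice of the list, so the counts and medians describe the listed probes and are no independent test of them. The median of their mean ratios was -0.497, with array medians of -0.45, -0.51 and -0.39, against 0.017 for all probes. The means of 157 of the 213 were below 0, and for 130 of them (61.0%) all 3 ratios were below 0, against 29.8% of all probes. Of the 213, 78 were called lower, or 36.6%, against 11.6% of all probes tested, and 18 were called higher, or 8.45%, against 8.65%. For comparison, 13.5% of the 126 probes that the study listed for 1.5 mm anthers were called lower, as were 3.64% of the 330 probes of its pollen list and 7.53% of the 863 probes of its leaf list. The number of calls depended on the arrays: 30 members were called without replicate 1 (20 lower, 10 higher), 94 without replicate 2 and 12 without replicate 3 (9 lower, 3 higher), while the median stayed between -0.54 and -0.435. Rank Products called 16 (9 lower, 7 higher). The shares of all probes called under these other settings are not given. Whether more members than probes as a whole were called lower under them cannot be read from these counts.

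The counts by product group in 1.5 mm anthers of A619, given from here on, stand beside 11.6% called lower and 8.65% higher among all probes. Among the 213 members the shares were 36.6% and 8.45%, and most groups are small. Kinases and signalling proteins had the lowest median of the product groups in 1.5 mm anthers of A619, at -0.93, with 7 of 11 called lower and none higher. A shaggy-like kinase (TC259714), of the GSK3 family that acts in brassinosteroid signalling, had ratios of -2.33, -2.05 and -1.75 in A619, against -0.29, -0.55 and 0.22 in ND101/W23. OSK1 (TC260803), a kinase of the SNF1 family that responds to the energy state of the cell, had -1.81, -1.43 and -1.51 in A619, against -0.2, -0.21 and -0.23 in ND101/W23. For both kinases every A619 ratio lay at least 1 unit below every ND101/W23 ratio. Their means were -2.04 ± 0.29 and -1.58 ± 0.2 in A619 (SD, n = 3 each; adjusted p = 0.00117 and 0.000631). The calcium-dependent protein kinase ZmCPK11 (TC260870), which links calcium signals to phosphorylation, averaged -1.01 ± 0.16 (SD, n = 3; adjusted p = 0.00336), and the other kinases called had means between -1.15 and -0.71. Of those not called, a histidine-containing phosphotransfer protein (BG550370.1), which relays cytokinin signals, had 0.42, 0.26 and 0.31.

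Protein turnover was lower in 11 of 12 means, with 7 members called lower, none higher and a median of -0.72. The lowest mean of any member belonged to a carboxyl-terminal proteinase-like protein (TC251804), with -3.58, -3.86 and -2.28 in A619, against -0.71, -1.53 and -0.18 in ND101/W23. A subunit of the 26S proteasome (TC260197), the complex that degrades ubiquitin-tagged proteins, had -1.42, -1.29 and -1.55 in A619, against -0.41, -0.21 and 0.17 in ND101/W23. The A619 ratios of both lay below all those of ND101/W23, those of the proteasome subunit within a narrow band and those of the proteinase spread over more than 1 unit. The adjusted p-values were 0.00229 (mean -3.24 ± 0.84) and 0.00156 (mean -1.42 ± 0.13; SD, n = 3 each). The other called members were a serine carboxypeptidase-like protein (TC255997), autophagy 4b (TC274104), the ubiquitin ligase SINAT5 (TC261494) and 2 homologs of CDC48, the ATPase that pulls ubiquitin-tagged proteins out of complexes (TC275725 and TC270029), with means between -0.99 and -0.62. The 1 mean above 0 was that of a proteolytic subunit of the Clp protease (TC250703), at 0.19 and not called.

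**Figure D2:**
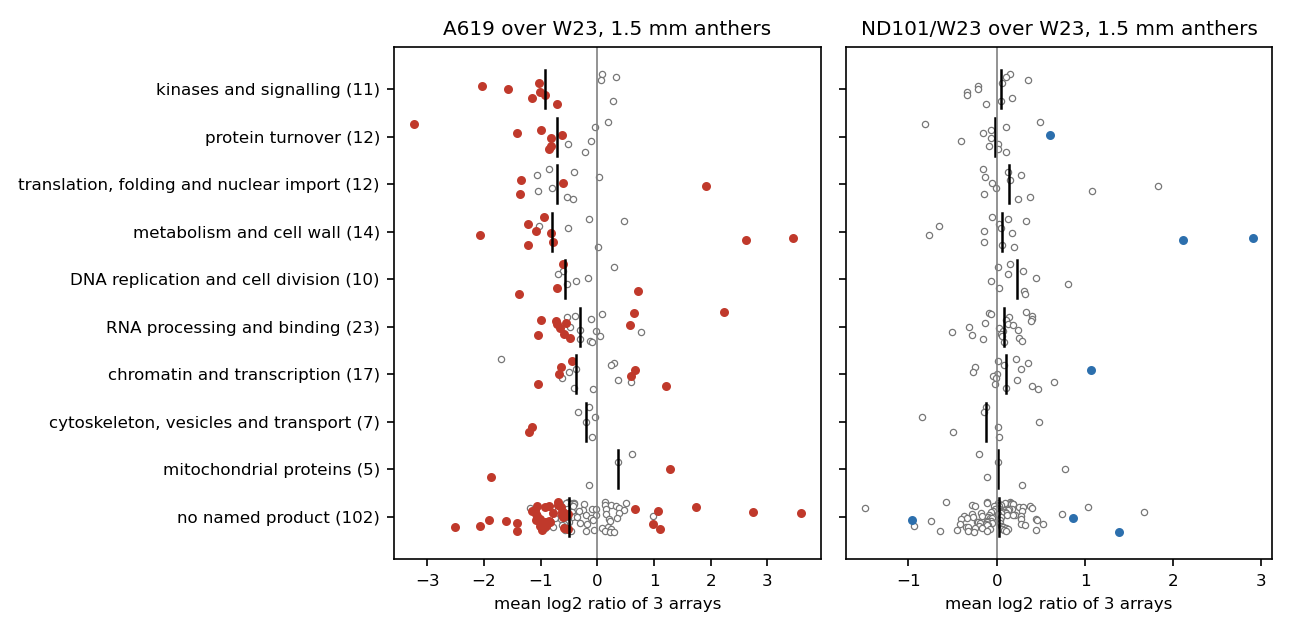
Mean log2 ratio of 3 arrays (line over W23) for every member in 1.5 mm anthers, by product group, with A619 in the left panel and ND101/W23 in the right panel and the number of members in brackets. Filled points are called members, open points are not called, and a black line marks the median of a group; the medians of kinases and of protein turnover are -0.93 and -0.72 in A619.

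In metabolism, 7 of 14 enzymes were called lower and 2 higher in 1.5 mm anthers of A619, with a median of -0.8. The enzymes lower included both subunits of pyrophosphate-dependent phosphofructokinase, which uses pyrophosphate to phosphorylate fructose 6-phosphate in glycolysis: the alpha subunit (TC270472) had -1.44, -1.17 and -1.05, and the beta subunit (TC249173) had a mean of -0.95. A glycerophosphodiester phosphodiesterase-like protein (TC261801), which acts on degraded phospholipids, had -2.39, -1.96 and -1.87 in A619, against -1.31, -1.06 and 0.06 in ND101/W23. The A619 ratios of this enzyme lay below all those of ND101/W23, and its mean in A619 was -2.07 ± 0.28 (SD, n = 3; adjusted p = 0.00365). C-24 sterol methyltransferase (TC260031), an enzyme of plant sterol synthesis, had -1.13, -1.17 and -1.39 in A619, against 0.03, -0.29 and 0.34 in ND101/W23, again without overlap. The 2 enzymes higher were the nucleoside hydrolase and the endo-glucanase given above. Allene oxide cyclase (TC260211), which makes a precursor of jasmonate, averaged -1.03 and was not called.

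Translation, folding and nuclear import had 3 of 12 members called lower, 1 higher and a median of -0.71. A T complex protein, a subunit of the cytosolic chaperonin that folds actin and tubulin, had -1.41, -1.58 and -1.1 in A619, against 0.59, -1.44 and 0.43 in ND101/W23. An importin beta-like protein (TC252060), which carries cargo into the nucleus, had -1.34, -1.1 and -1.6 in A619, against 0.12, -0.17 and 0.5 in ND101/W23. The lines overlapped for the chaperonin subunit, through the array of ND101/W23 with replicate number 2, and did not overlap for the importin. Nucleoporin 62 (TC264982), a protein of the nuclear pore, went the other way in both lines, with 1.49, 2.05 and 2.19 in A619, against 0.62, 2.04 and 2.84 in ND101/W23. Its mean of 1.91 ± 0.37 in A619 was called (SD, n = 3; adjusted p = 0.017), and the mean of 1.83 in ND101/W23 was not, with 1 array far below the other 2.

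Of the 23 RNA processing and binding proteins, 8 were called lower and 3 higher, with a median of -0.31. The exosome subunit RRP4 (TC254371), part of the complex that trims and degrades RNA from the 3' end, had -0.82, -0.89 and -1.26, and a ribonucleoprotein (TC278646) had -0.92, -1.02 and -1.22 in A619. Spliceosome proteins were among the others called lower: the U2 snRNP protein A' (TC255658) at -0.73, the U5 snRNP protein TC260912 at -0.71 and the large subunit of the U2 auxiliary factor (TC258449), which binds near the 3' splice site, at -0.56. A polyribonucleotide nucleotidyltransferase (CD651129), an RNA-degrading enzyme known from plastids and mitochondria, stood apart with 2.07, 1.95 and 2.71 in A619, against 0.73, -0.49 and 0.76 in ND101/W23. All 3 A619 ratios lay above those of ND101/W23, and the mean was 2.24 ± 0.41 (SD, n = 3; adjusted p = 0.00329). A separate probe for a polynucleotide phosphorylase (TC273290), an enzyme of the same activity, averaged -0.02.

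DNA replication and cell division had a median of -0.57, with 3 of 10 members called lower and 1 higher. The subunit of replication factor C (TC273833), the loader of the sliding clamp at replication forks, had -1.02, -1.7 and -1.46 in A619, against 0.59, -0.48 and 0.86 in ND101/W23, without overlap between the lines. Cyclin A2 (TC266433) at -0.71 and FAS1 (AI881422), a subunit of the chromatin assembly factor that places histones on new DNA, at -0.6 were the other 2 called lower. Mini-chromosome maintenance 7 (TC258340), part of the replicative helicase, averaged -0.69 and was not called, and a B-type cyclin (TC265990) averaged -0.54 and was not called either. A DNA topoisomerase-like protein (TC273281) had 0.62, 0.53 and 0.97 and was called higher (adjusted p = 0.0143).

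Among the 17 proteins of chromatin and transcription, 4 were called lower and 3 higher. A WRKY factor (TC268763), of a family known from defence and senescence, had -0.9, -1.35 and -0.87. The transcriptional adaptor TC271569, of the complexes that acetylate histones, had 0.94, 1.35 and 1.34 in A619, against 0.35, 0.48 and 0.36 in ND101/W23, with all A619 ratios above those of ND101/W23 and an adjusted p of 0.00173 in A619. The DNA methyltransferase TC263214 had 0.66, 0.49 and 0.64, and growth-regulating factor 9 (TC261753) had 0.76, 0.34 and 0.89 in A619, against 1, 1.15 and 1.05 in ND101/W23, called higher in both. Of the mitochondrial proteins, the beta subunit of the processing peptidase (TC259823), which removes the import signal of precursor proteins, had -1.86, -1.73 and -2.04 in A619, against -0.32, -0.07 and 0.06 in ND101/W23. Cytochrome b (TC253961), encoded by the mitochondrial genome, had 0.53, 1.64 and 1.69 in A619, against 0.83, 0.61 and 0.88 in ND101/W23. The lines were far apart for the peptidase and overlapped for cytochrome b. In the cytoskeleton, vesicle and transport group all 7 means were below 0, and a transmembrane 9 superfamily protein (TC270659; -1.31, -0.89 and -1.41) and an ABC transporter (TC260025; mean -1.15) were called.

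Of the 102 transcripts without a named product 36 were called lower and 7 higher, with a median of -0.5. The lowest, TC274220, had -3.37, -1.3 and -2.88 in A619, against -0.55, -0.14 and -0.28 in ND101/W23. TC250848, similar to the product of Arabidopsis AT5g59220, had 1.47, 3.1 and 3.65 in A619, against 2.19, 1.99 and 0.82 in ND101/W23, with overlap. Members with no mismatch had a median of -0.5 (194 probes, 72 lower and 17 higher) and those with 1 mismatch had -0.39 (16 probes, 4 lower and 1 higher). Probes on the forward strand had a median of -0.51 (201 probes, 76 lower and 17 higher), and the 12 on the reverse strand had -0.05, with 2 lower and 1 higher. Differences of sequence between the lines at a probe were not tested.

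**Figure D3:**
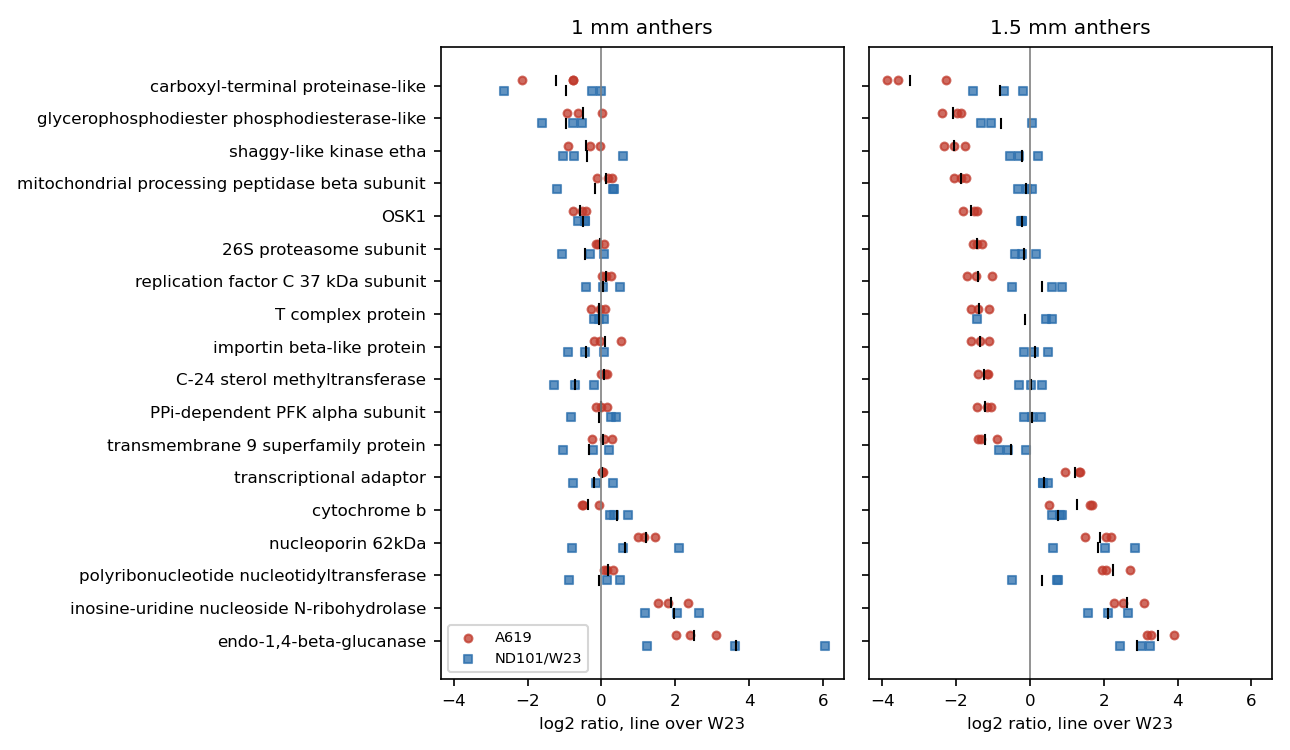
Log2 ratio (line over W23) on each of 3 arrays for 18 named members, in 1 mm anthers (left panel) and 1.5 mm anthers (right panel); red circles are A619, blue squares are ND101/W23 and black ticks are means. The 12 members at the top have A619 ratios of -0.89 or lower in 1.5 mm anthers, the bottom 6 have A619 ratios of 0.53 or higher there.

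In 1.5 mm anthers of ND101/W23 the list did not stand apart. Its median was 0.047, with array medians of 0.08, -0.17 and 0.19; 1 member was called lower and 6 higher, against 2.14% and 1.82% of all probes tested. The members called higher were the nucleoside hydrolase, the endo-glucanase, growth-regulating factor 9, SINAT5 and 2 transcripts without a named product, of which TC260165 had 0.82, 0.67 and 1.12. SINAT5, which marks proteins for the proteasome, had 0.67, 0.42 and 0.7 in ND101/W23, and its adjusted p of 0.0468 became 0.0553 with the replicate block. In all, 11 members were called with the block, 18 without replicate 2, 2 without replicate 1 and none without replicate 3. The spread of the 3 ratios of a member was narrower in A619, with a median SD of 0.24, against 0.37 in ND101/W23. Over all probes it was also narrower in A619, at 0.22 against 0.28.

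The difference between the lines in 1.5 mm anthers had a median of -0.513 over the members, and 163 of 213 were below 0. The shared W23 cancels in the mean difference. Without the replicate block, its spread over the arrays stays in the SEs and adjusted p-values. In limma 18 members were lower and 1 was higher in A619 than in ND101/W23, against 1.75% and 2.09% of all probes. Without any test, the 3 A619 ratios all lay below the 3 ND101/W23 ratios in 90 members, or 42.3%, against 13.9% of all probes, and all above in 17, or 7.98%, against 13.1%. As for each line alone, the signals at this stage entered the choice of the list. The counts, medians and p-values of the difference therefore describe the listed probes and are no independent test of them. The called members included 3 kinases, 3 proteins of protein turnover and 2 metabolic enzymes. The mitochondrial processing peptidase differed by -1.77 (SE 0.17, adjusted p = 0.00501), the shaggy-like kinase by -1.84 (SE 0.26, adjusted p = 0.0148), the importin by -1.5 (SE 0.23, adjusted p = 0.0211) and SINAT5 by -1.22 (SE 0.17, adjusted p = 0.0144). With the replicate number as a block 54 members differed (49 lower, 5 higher), 33 did so without replicate 2, and none did without replicate 1 or without replicate 3.

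Between the stages, the A619 ratios differed in 59 members, 51 of them lower at 1.5 mm than at 1 mm and 8 higher, against 4.57% and 2.91% of all probes tested. The signals at both stages entered the choice of the list. These counts, medians and p-values therefore describe the listed probes and are no independent test of them. The median of the difference, 1.5 mm minus 1 mm, was -0.417, and 160 of 213 differences were below 0. The processing peptidase had ratios of 0.18, -0.11 and 0.29 at 1 mm, far above its 1.5 mm ratios, and a difference of -2.0 (SE 0.17, adjusted p = 0.00444). The 26S proteasome subunit had 0.07, -0.09 and -0.14 at 1 mm (difference -1.37, SE 0.15, adjusted p = 0.00954), and the importin had -0.04, -0.21 and 0.52 (difference -1.44, SE 0.23, adjusted p = 0.017). All 3 were near W23 at 1 mm and below it on each array at 1.5 mm. By product group the differences called lower took in 5 kinases, 5 metabolic enzymes, 5 RNA proteins, 3 members of translation, folding and import, 3 of chromatin and transcription, and 2 each of replication, protein turnover and transport. The number of stage differences was 12 without replicate 1, 23 without replicate 2 and 1 without replicate 3.

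A ratio that moves between stages can move through either line, and ratios alone do not say which. In ND101/W23 no member differed between stages, as was the case for all probes (0.0%), with 8 members at an unadjusted p under 0.05 in limma. Across the members the mean ratios at 1 mm and 1.5 mm correlated at a Pearson r of 0.58 in A619 and 0.64 in ND101/W23, against 0.65 and 0.72 over all probes; these are correlations across genes, which are not independent replicates, and the Spearman rho over the members was 0.29 in A619 and 0.41 in ND101/W23.

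In juvenile leaf more members were called higher than lower in A619 by limma. The median was 0.21, with array medians of 0.24, 0.1 and 0.31, against -0.027 for all probes, and 146 means were above 0. In A619 leaf 16 members were called lower, or 7.51%, against 18.0% of all probes tested, and 50 were called higher, or 23.5%, against 23.9%. The share called higher was thus close to that of all probes, and the share called lower was smaller. For comparison, 9.52% of the study's 1.5 mm anther list were called lower in A619 leaf, as were 10.3% of its pollen list and 21.3% of its leaf list. The signals in leaf entered the choice of the members. The leaf counts and medians of both lines, here and below, therefore describe the listed probes and are no independent test of them. The member with the highest leaf ratio was a CBL-interacting protein kinase (BG517716), a partner of calcium sensors, with 2.82, 4.62 and 3.54 in A619, against 0.04, 0.18 and -0.06 in ND101/W23, and with anther and pollen ratios of both lines between -0.4 and 0.42. EBP2 (TC271989), a nucleolar protein of ribosomal RNA processing, had 1.46, 1.81 and 1.93 in A619 leaf, against 0.43, 0.03 and 0.43 in ND101/W23. Both stood clear of ND101/W23 on every array, and their adjusted p-values in A619 were 0.000226 and 0.000237. By the study's definition neither was called present in leaf, and the signals behind these ratios were not analysed.

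The lowest leaf ratios belonged to BE238702, a transcript of unknown product, with -4.88, -6.64 and -4.15 in A619, against 0.39, 0.84 and 0.82 in ND101/W23. In anthers and pollen its A619 ratios lay between -0.65 and 0.47. The carboxyl-terminal proteinase-like TC251804 had -2.56, -3.8 and -2.17 in A619 leaf, against -0.47, -0.47 and -0.55 in ND101/W23, and TC274220 had -2.82, -2.88 and -2.59 in A619, against -1.68, 0.79 and -0.09. For all 3 transcripts the A619 leaf ratios lay below every ND101/W23 leaf ratio. By the study's definition none of the 3 was called present in leaf. By group, 6 of 23 RNA proteins were called higher and 1 lower, 7 of 17 chromatin and transcription proteins higher and 1 lower, and 3 of 10 replication proteins higher and none lower. Protein turnover had none of 12 higher and 2 lower, and the mitochondrial proteins 1 of 5 each way. Metabolism had 3 of 14 higher and 1 lower, kinases 2 of 11, translation, folding and import 2 of 12 and transport 1 of 7 higher with none lower, and the transcripts without a named product 25 of 102 higher and 10 lower. These counts stand beside 23.9% higher and 18.0% lower among all probes, and most groups are small. Leaving out replicate 1 left 30 members called in A619 leaf (10 lower, 20 higher) and scaling the arrays to equal spread left 43 (11 lower, 32 higher), while Rank Products called 5 with the balance turned (4 lower, 1 higher).

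The comparisons of 1.5 mm anthers and leaf in A619 share no samples. Called in both were 30 members, 31.2% of the 96 called in 1.5 mm anthers and 45.5% of the 66 called in leaf, against 48.8% of 1603 and 23.6% of 3312 over all probes. Of these 30, 8 were lower in both, 4 higher in both, 16 lower in anthers and higher in leaf, and 2 higher in anthers and lower in leaf, so that 60.0% had opposite directions, against 38.3% of the 783 probes called in both over the whole array. Of the member calls, 78 of 96 in anthers were lower and 50 of 66 in leaf were higher. Over all probes these were 920 of 1603 and 1887 of 3312. The share with opposite directions depends on these totals, so no reversal particular to the members can be read from it. Over the 213 members the 2 sets of means correlated at a Pearson r of 0.17 and a Spearman rho of -0.02, against 0.16 and 0.01 over all probes, as a description across genes. The members with opposite directions came from several groups. RRP4 had -0.82, -0.89 and -1.26 in anthers and 1.1, 1.18 and 1.17 in leaf of A619, while ND101/W23 leaf had -0.23, -0.04 and -0.39. ZmCPK11 had 0.61, 1.24 and 0.81 in A619 leaf, replication factor C had 0.9, 0.15 and 1.09, and the WRKY factor TC268763 had 0.79, 0.93 and 0.67, all above 0 where their anther ratios were all below. Cytochrome b ran the other way, with -1.14, -1.07 and -0.84 in A619 leaf, and with -0.86, -1.14 and -0.88 in ND101/W23 leaf it was called lower there too.

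**Figure D4:**
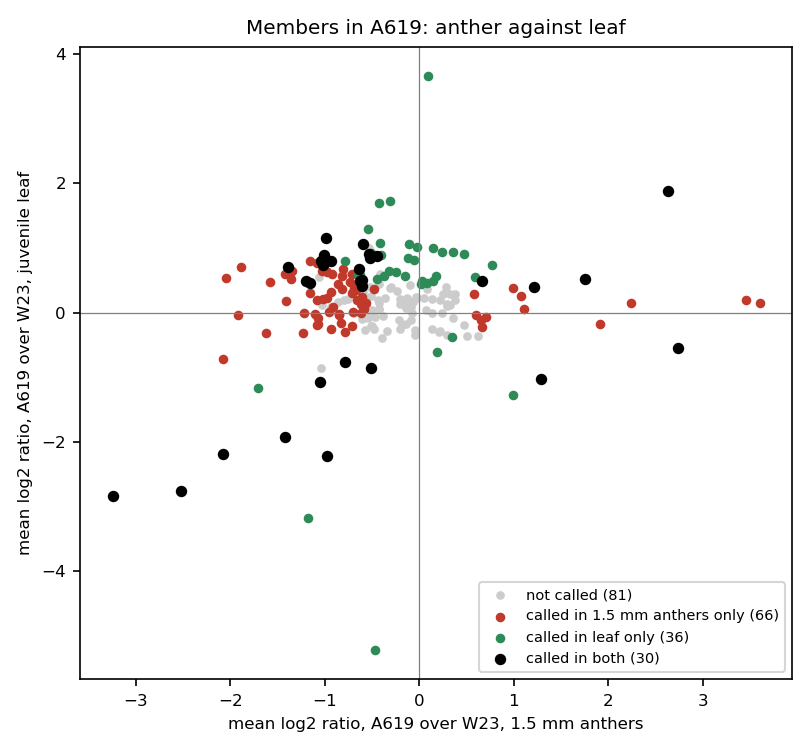
Mean log2 ratio of A619 over W23 for each of the 213 members, 1.5 mm anthers on the horizontal axis and juvenile leaf on the vertical axis, 3 arrays each. Grey points are called in neither (81), red in 1.5 mm anthers only (66), green in leaf only (36) and black in both (30); 16 black points lie at the upper left, lower in anthers and higher in leaf.

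**Figure D5:**
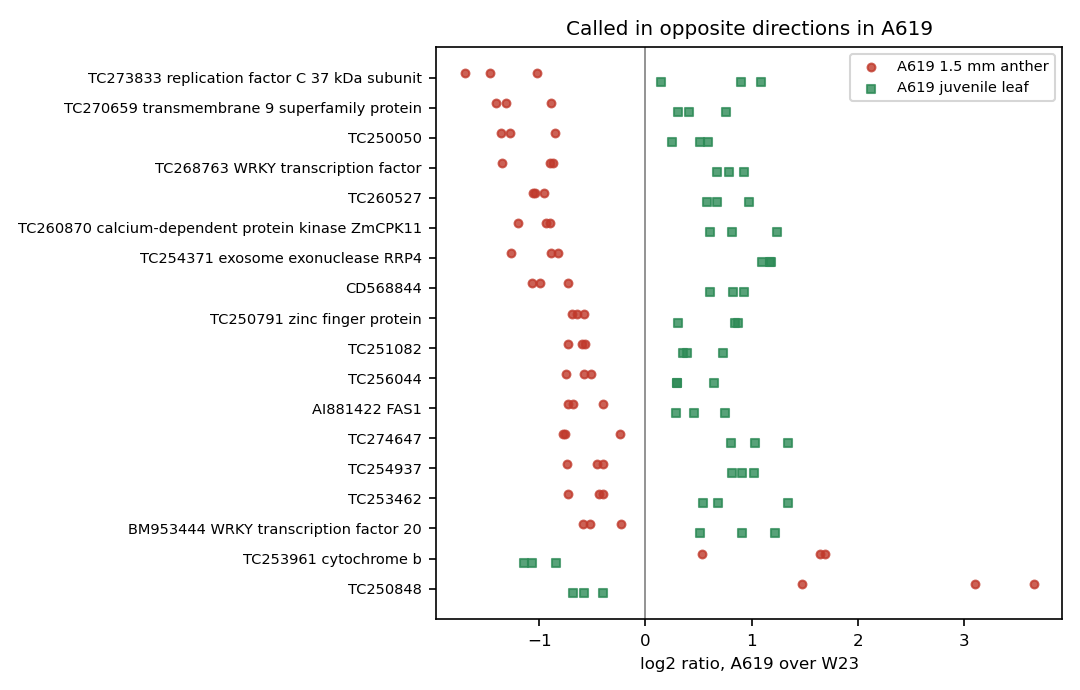
Log2 ratio of A619 over W23 on each of 3 arrays for the 18 members called in opposite directions, red circles for 1.5 mm anthers and green squares for juvenile leaf. In 16 members all anther ratios are below 0 and all leaf ratios above 0, and in cytochrome b and TC250848 the tissues are reversed.

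ND101/W23 leaf had a median of 0.087, with array medians of 0.04, -0.01 and 0.275, and 5 members called lower and 7 higher, against 4.41% and 5.85% of all probes tested. With the replicate block 38 members were called (11 lower, 27 higher), and without 1 of the replicates between 0 and 3 were. Villin 4 (TC250627), which bundles actin filaments, had -0.58, -1.31 and -0.74, and a cytosolic alanyl-tRNA synthetase had 0.81, 0.39 and 0.88. IAA18 (AW057054), a repressor of auxin response, had leaf ratios of opposite sign in the lines, -0.59, -2.05 and -0.85 in A619, against 0.75, 1.74 and 1.4 in ND101/W23. It was called in both (adjusted p = 0.0206 in A619 and 0.0432 in ND101/W23), and the difference was -2.46 (SE 0.43, adjusted p = 0.00952). In 1.5 mm anthers the same probe had 0.31, -4 and -1.41 in A619, against 2.47, -3.49 and 1.68 in ND101/W23; the 2 very low ratios carry replicate number 2 in both lines and have their W23 sample in common.

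Between the lines in leaf, 7 members were lower and 18 higher in A619 than in ND101/W23, against 9.16% and 11.8% of all probes. The 3 A619 ratios lay below all those of ND101/W23 in 16 members, or 7.51%, against 17.0% of all probes, and above in 45, or 21.1%, against 21.6%. BG517716 differed by 3.61 (SE 0.43, adjusted p = 0.00279), BE238702 by -5.91 (SE 0.59, adjusted p = 0.00195), RRP4 by 1.37 (SE 0.16, adjusted p = 0.00283) and EBP2 by 1.44 (SE 0.21, adjusted p = 0.00497). All 6 RNA processing proteins that differed were higher in A619. With the replicate block 49 members differed (16 lower, 33 higher), without replicate 2 there were 8, without replicate 3 there were 17, and without replicate 1 there were none. In 1 mm anthers no member differed between lines, against 0.734% of all probes, with 15 at an unadjusted p under 0.05 and 1 with the replicate block. There the 3 A619 ratios lay below those of ND101/W23 in 8 members and above in 18, shares of 3.76% and 8.45%, against 9.32% and 11.2% of all probes. Presence in all 3 lines at 1 mm was a condition of the list, so these low counts are no independent test of the members.

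In mature pollen, the shed male gametophyte that follows the anther stages, no member was called in either line, against 1.53% of all probes in A619 and 0.937% in ND101/W23. The signals in pollen entered the choice of the list. The counts and medians in pollen therefore describe the listed probes and are no independent test of them. The medians were 0.01 in A619 and -0.05 in ND101/W23, and 14 members in A619 and 13 in ND101/W23 had an unadjusted p under 0.05 in limma. With the replicate block 1 member was called in A619, and without replicate 2 there were 2. No member differed between the lines, where 0.0% of all probes did, 19 had an unadjusted p under 0.05, and Rank Products called 1 in A619. Without overlap, the A619 ratios lay below those of ND101/W23 in 9 members (4.23%, against 6.97% of all probes) and above in 22 (10.3%, against 6.42%). The DNA methyltransferase that was also on the pollen list had 0.63, 1.97 and -0.23 in A619, against 0.27, 0.07 and -0.46 in ND101/W23, with 1 high array and signs that differed.

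Counted over the 8 comparisons with W23, 72 members were called in none, 98 in 1, 35 in 2, 6 in 3, 1 in 4 (the gag-pol product) and 1 in 6 (the nucleoside hydrolase). Among the named calls in 1.5 mm anthers of A619, 10 of 44 stayed called when any 1 of the 3 replicates was left out: the shaggy-like kinase, OSK1, the mitochondrial processing peptidase, the 26S proteasome subunit, the glycerophosphodiester phosphodiesterase-like protein, the phosphofructokinase alpha subunit, the gag-pol product, the nucleoside hydrolase, the endo-glucanase and TC252349. In A619 leaf 15 of 36 did. They were BG517716, BE238702, EBP2, RRP4, ZmCPK11, cytochrome b, TC251804, TC274220, the nucleoside hydrolase, the gag-pol product, the peptidylprolyl isomerase CN844824, CD568844, TC253462, TC254937 and TC274647. The other named calls, with the sizes given above, each lost the adjusted threshold in at least 1 of these 3 refits.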

How the data were processed

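The deposited values are log2 ratios. From scanned images (Agilent Feature Extraction) the authors removed saturated spots and set signal thresholds that started from negative controls. They kept on every array each probe that passed the thresholds in any of the 8 comparisons. A kept probe thus has ratios also in tissues where its signal was below threshold. They normalized the log2 ratios within each array by rank-invariant probes and loess, scaled them to equal variance among triplicates and flagged outliers by Grubbs' test. Of 21939 probes on the array, 7900 had a value, 7884 to 7900 on each array, and array medians lay between -0.04 and 0.04. Arrays of opposite dye orientation correlated at 0.108 to 0.79 (16 pairs), those of the same orientation at 0.224 to 0.891 (8 pairs), so dye-swapped arrays had already been turned. Members were joined to the values at an offset of 3 between probe numbers, at which 22 of 24 EST names known from both sources matched; of the other offsets tried none gave a match. Of the members 209 had values on all 24 arrays and 4 on 23, and missing values were left out of the fit.

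For each tissue, limma 3.58.1 in R 4.3.3 was fitted to all probes on 6 arrays with a mean for each line; p-values were adjusted by Benjamini-Hochberg over all probes. The stage contrast used the 6 anther arrays of a line. The fits were also run on simulated data with independent noise on each array and changes in A619 only. That run left out the W23 samples that the lines share, so it does not cover their effect, and its outcome is not given. Tables were made in Python 3.11.15 with pandas 2.3.3 and numpy 2.4.6, and plots with matplotlib 3.10.9. Same-numbered arrays of both lines share a W23 sample according to the labels and the study's methods; their deviations correlated at 0.198 to 0.645 (12 pairs), those of different numbers at -0.571 to 0.227 (24 pairs).

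The members, product groups and lists were chosen with earlier results of these data known. The transcripts named were the lowest and highest called ones with a product in each comparison, the extremes of each product group, those called at both anther stages or in opposite directions, those on other lists and those of smallest and largest range, 66 in all; other names within a product group were chosen after their values were seen. Alternatives were the replicate block, a dye coefficient, median-centred arrays, equal median absolute deviation, 1 fit on all 24 arrays, Rank Products and leaving out each replicate number.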

Additional observations from a re-analysis of the deposited data

Results flagged for a closer look

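Each value here is a difference between 2 sets of log2 ratios with limma's adjusted p for the difference under 0.05, on 3 arrays a side. The signals of these tissues entered the choice of the list, so the differences are not independent of that choice. No other kind of result was singled out, and groups of 3 arrays were not tested for a single outlying array here.

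Between the anther stages of A619 (1.5 mm minus 1 mm), 59 members differed. Of the kinases, the difference was -1.62 for the shaggy-like kinase, -1.01 for OSK1 and -1.02 for ZmCPK11. In metabolism it was -1.56 for TC261801, -1.3 for C-24 sterol methyltransferase and -1.21 for the phosphofructokinase alpha subunit. It was -1.37 for the 26S proteasome subunit, -1.53 for the replication factor C subunit, -1.44 for the importin, -1.29 for the T complex protein and -1.24 for the transmembrane 9 protein. RNA proteins had -1.16 (TC278646), -1.28 (RRP4) and 2.06 (CD651129). In chromatin and transcription the differences were -0.8 for the WRKY factor TC268763, -0.64 for the zinc finger protein TC250791, 0.62 for the DNA methyltransferase and 1.19 for the transcriptional adaptor. The mitochondrial processing peptidase had -2.0 and cytochrome b 1.66. Transcripts without a named product had -0.82 (CD568844), -0.68 (AW042328.1), -1.0 (TC260527), -1.03 (TC250050), 3.11 (TC250848) and 1.71 (TC252349).

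Between A619 and ND101/W23 in 1.5 mm anthers, 19 members differed. The differences, A619 minus ND101/W23, were -1.84 for the shaggy-like kinase, -1.37 for OSK1, -1.77 for the processing peptidase, -1.5 for the importin, -1.27 for the 26S proteasome subunit and -1.22 for SINAT5. The enzymes had -1.26 (C-24 sterol methyltransferase) and -1.28 (phosphofructokinase alpha subunit). Without a named product, TC260165 had -0.99, CD568844 had -1.18 and TC252349 had 3.78.

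Between A619 and ND101/W23 in leaf, 25 members differed. The differences were 3.61 for BG517716, 1.44 for EBP2, 1.37 for RRP4, 0.84 for the peptidylprolyl isomerase, 0.82 for the cold shock domain protein, -2.46 for IAA18 and -2.35 for TC251804. They were -1.6 for the gag-pol product, and 0.77 (TC254937), -2.44 (TC274220), 0.94 (TC274647) and -5.91 (BE238702) for transcripts without a named product.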

How the results depend on the processing

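No call of a named transcript turned its sign under any alternative run, but the balance of lower and higher calls did. Calls in A619 leaf were 4 lower and 1 higher by Rank Products, and those in ND101/W23 leaf 2 lower and 1 higher without replicate 3. In 1 mm anthers of ND101/W23 none was lower without replicate 1 (7 higher), with equal median absolute deviation (3 higher) or by Rank Products (2 higher). In 1 mm anthers of A619 the dye coefficient gave 3 lower and 1 higher, the block 4 lower and 3 higher, and leaving out replicate 2 gave 1 lower. The median of ND101/W23 at 1.5 mm was -0.045 without replicate 3. The 3 arrays of a comparison limit every count. In the order of 1 mm anthers, 1.5 mm anthers, leaf and pollen, leaving out 1 replicate number gave 0 to 1, 12 to 94, 30 to 62 and 0 to 2 members called in A619 and 0 to 7, 0 to 18, 0 to 3 and 0 in ND101/W23. It gave 0 to 33 differences between lines in 1.5 mm anthers, 0 to 17 in leaf, 1 to 23 between stages of A619, a median of -0.54 to -0.435 in A619 and one of -0.045 to 0.135 in ND101/W23 at 1.5 mm. The replicate block gave 7 calls in A619 at 1 mm, 1 in A619 pollen, 11 in ND101/W23 at 1.5 mm and 38 in its leaf, and 1, 54 and 49 differences between lines in 1 mm anthers, 1.5 mm anthers and leaf; other counts moved by less than 1.5 times. No paired analysis was possible for the stage contrast because the stages share no samples. One fit on all 24 arrays gave 6 calls in A619 at 1 mm, 1 in pollen of each line, 15 in ND101/W23 at 1.5 mm, and 2, 43 and 1 differences between lines in 1 mm anthers, 1.5 mm anthers and pollen. Equal median absolute deviation gave 11 calls in A619 at 1 mm and 43 in its leaf, 3 in ND101/W23 at 1 mm and 36 in its leaf, 1 and 15 differences between lines at 1 mm and in leaf, and 21 between stages of A619. A dye coefficient gave 32 calls in ND101/W23 leaf and 1 difference between lines at 1 mm. Rank Products, run on the comparisons with W23 alone, gave 7, 16, 5 and 1 calls in A619 and 2, 4 and 1 in 1 mm anthers, 1.5 mm anthers and leaf of ND101/W23. The cause of these changes was not tested. Of 108 calls of named members, 105 were kept with the block, 100 with the dye coefficient, 108 with median-centred arrays, 80 with equal median absolute deviation, 91 on all 24 arrays, 25 by Rank Products, and 42, 74 and 38 without replicate 1, 2 and 3.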

Other observations

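The range of a member over the 24 arrays is that of its ratios to W23 within a tissue, and says nothing of how far its signal differed between tissues. The narrowest range was that of TC249303, similar to an Arabidopsis protein without a stated function, whose ratios spanned 0.59, from -0.29 to 0.3. BM736875, of unknown product, spanned 0.68. Myosin XI (AW179403), the motor that moves organelles along actin in plant cells, spanned 0.8, from -0.45 to 0.35. AW036816.1, of unknown product, spanned 0.86, and the histidine-containing phosphotransfer protein spanned 0.9. None of these 5 was called in any comparison. At the other end, BE238702 spanned 7.88, IAA18 6.47, the endo-glucanase 6.3, TC250848 5.84 and TC252349 5.32, and each of these 5 was called in at least 1 comparison.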
